A study of Saccharomyces cerevisiae with 39 samples.

Results

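The 32 genes described here act in meiotic recombination and chromosome synapsis in budding yeast, and were chosen by their systematic names from the 6186 features of the count table. All 32 were found in the table, all 32 matched a RefSeq gene, and all 32 passed the filter on low counts. By role, 7 were grouped under DNA breaks, 5 under the chromosome axis, 6 under strand exchange, 10 under synapsis and crossover formation, and 4 under chromosome motion or the first division. The break group includes MER1, a meiotic splicing factor. Some of them carry other familiar names, among them CST9, which is ZIP3, and SPO22, which is ZIP4.

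RNA was sequenced from 39 libraries of diploid Saccharomyces cerevisiae, 3 from each of 13 strains, to ask which parts of the disordered region of Pho92 are needed. Pho92 is a reader of N6-methyladenosine (m6A), a methyl mark on mRNA that its YTH domain recognises. All strains were MATa/alpha with ho::LYS2 and the lys2 and ura3 markers, together with leu2::hisG, his3::hisG and, in addition, trp1::hisG. The wild type (WT) carried PHO92 itself, and pho92_null had the gene replaced (pho92::HYG). The other 11 strains lacked the endogenous gene (hyg::pho92) and carried HA-tagged PHO92 under the copper-induced CUP1 promoter at trp1. That copy was intact (CUP1_WT) or carried the substitution W177A, W5A or W18A, or W5A and W18A together (W5A_W18A). In the deletion strain del1_70 residues 1 to 70 were missing, in del28_52 residues 28 to 52, and in del110_155 residues 110 to 155. The strain del28_52_130_155 lacked residues 28 to 52 and 130 to 155. For its replicate 1 the genotype lacks the deletion sign after 28-52. W5A_W18A_del28_52 joined both substitutions with the deletion of 28 to 52. W5A_W18A_del28_52_110_155 is named from its titles, whereas its genotype lists the deletions of 28 to 52 and 110 to 155 without the substitutions. Every culture, WT and pho92_null included, received 50 µM copper sulphate 3 h after transfer to sporulation medium. The protocols mention an arrest in early meiosis and, for library preparation, degron strains, but no allele for either appears in the genotypes. The time of collection is not stated, nor whether the replicates were separate cultures, so the p-values measure the spread between these samples.

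In meiotic prophase the Spo11 complex cuts DNA on chromosomes organised by an axis of Hop1, Red1 and the cohesin Rec8. The recombinase Dmc1 then searches for the homologous chromosome, helped by Mei5-Sae3 and Hop2-Mnd1. The ZMM proteins, among them Zip2, Zip4, Spo16, Mer3 and Msh4-Msh5, mark future crossovers, and Zip1 zips the homologs together into the synaptonemal complex. Exit from this stage requires the transcription factor Ndt80, which turns on the genes of the meiotic divisions and of spore formation.

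Libraries held 15928411 to 37186964 counts, with a median of 20694394. PHO92 itself lay at 802 to 1054 counts per 1000000 (CPM) in WT, at most 2.4 CPM in pho92_null and 5384 to 16626 CPM in the CUP1 strains. Its level differed among the CUP1 strains, with CUP1_WT at 8197 to 11234 CPM. W5A, at 14379 to 15551 CPM, and W5A_W18A, at 12749 to 16626 CPM, lay above that range in all libraries. W5A_W18A_del28_52_110_155, at 5384 to 5682 CPM, lay below it, and the other variants overlapped with it. The part of PHO92 level in the comparisons with CUP1_WT was not tested. Meiotic regulators were present in all libraries: IME1, the master inducer of meiosis, at 1465 to 5900 CPM, the kinase gene IME2 at 650 to 6596 CPM and NDT80 at 18.1 to 1689 CPM. Among genes of haploid mating, MFA1 reached 1.48 CPM at most and MF(ALPHA)2 0.539 CPM, whereas STE3 reached 62.6 CPM.

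One library stood apart in the recombination and synapsis genes. The mean log2 CPM of the 32 genes was 6.32 in del110_155 replicate 3 and 8.08 to 9.10 in the other 38 libraries. All 32 genes lay at least 2-fold below the mean of del110_155 replicates 1 and 2, with log2 differences from -3.40 for GMC2 to -1.20 for REC107 and a median of -2.21. Over all 5840 genes tested the median was 0.02, and 390 lay at least 2-fold below. The mid-to-late sporulation genes had a median of -2.18 in the same library and the early regulators one of -1.09. It held 18742235 counts, and IME1, IME2 and NDT80 had their lowest values of all libraries there. Because all strains shared 1 estimate of the spread for each gene, this library widened the error in every comparison: the median residual SD of the 32 genes was 0.42 log2 with it and 0.23 without it, against 0.22 and 0.20 for all genes. Counts are therefore given for all 39 libraries and for the 38 without it, a fit added after the data were seen.

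**Figure D1:**
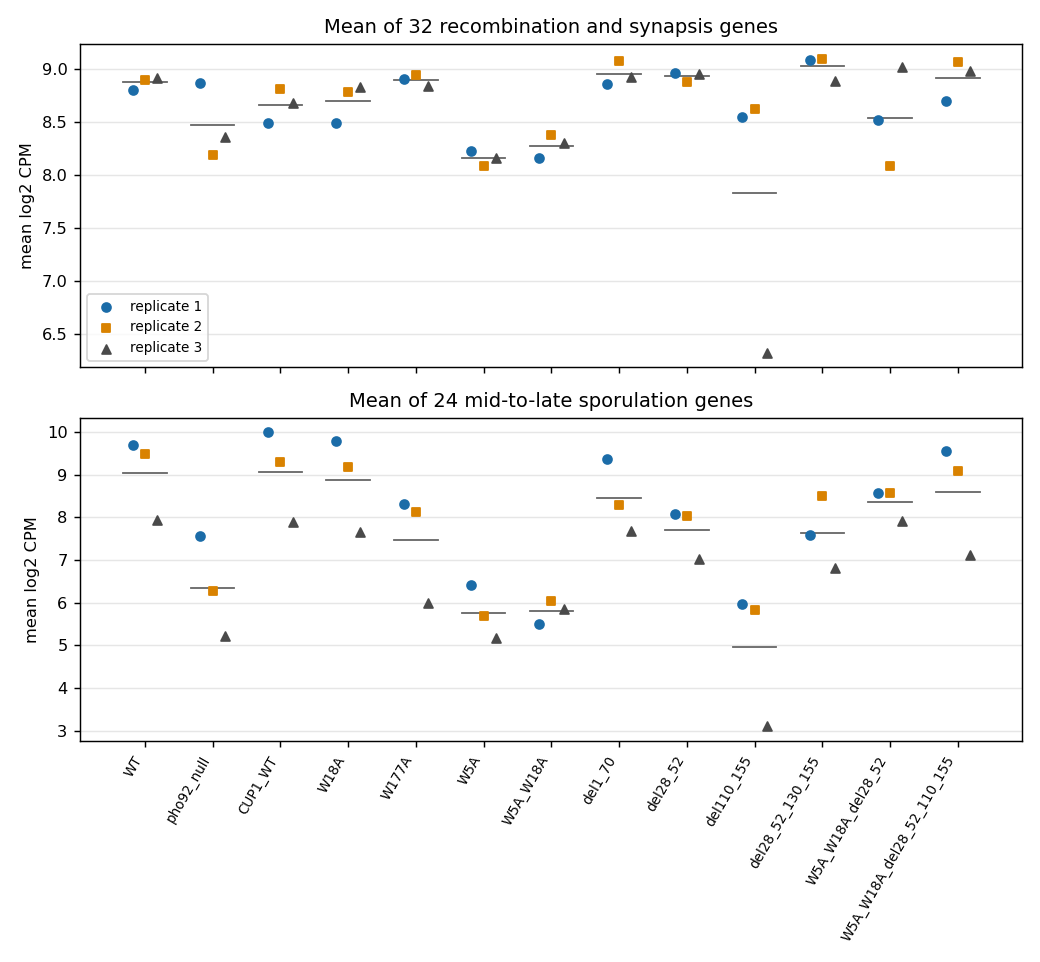
Mean log2 CPM of the 32 recombination and synapsis genes (top) and of 24 mid-to-late sporulation genes (bottom) in each of 39 libraries, by strain. Points are libraries with 1 symbol per replicate number and bars are strain means; del110_155 replicate 3 lies at 6.32 in the top panel, below all 38 others.

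Averaged over the 32 genes, the strains spanned a narrow range of log2 CPM. WT stood at 8.87 ± 0.06, CUP1_WT at 8.66 ± 0.16 and pho92_null at 8.47 ± 0.35 (SD, n = 3 each). W5A had 8.16 ± 0.07 and W5A_W18A 8.28 ± 0.11, while del28_52_130_155 had 9.02 ± 0.12 (SD, n = 3 each). All 3 W5A libraries, at 8.08 to 8.23, lay below all 3 CUP1_WT libraries, at 8.49 to 8.81. The del110_155 mean of 7.83 ± 1.31 (SD, n = 3) rested on the library that stood apart, and its other libraries had 8.55 and 8.62. In these bulk samples, fewer cells in meiosis and less RNA per cell cannot be told apart.

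How many of the 32 genes differed between WT and pho92_null depended on the library that stood apart. Higher in WT than in pho92_null was 1 of the 32 genes, MAM1, whereas 14.8% of all genes tested were higher (limma, adjusted p under 0.05 over all genes). With that library left out (del110_155 replicate 3), 13 were higher and 0 lower, against 17.3% of all genes higher. The median log2 difference of the 32 genes was 0.39, where that of all genes was -0.04, and 31 of 32 were positive. With the 6 libraries of these strains fitted alone, 1 of the 32 was called.

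Those 13 genes were 2 of 7 break, 0 of 5 axis, 1 of 6 exchange, 7 of 10 synapsis and 3 of 4 motion and division genes. Among break genes, SPO11 (YHL022C), whose product cuts the DNA, was higher by 0.60 on the log2 scale (SE 0.18, limma adjusted p = 0.0113 without del110_155 replicate 3), and REC114, a partner in the cutting machinery, by 0.68. SPO11 was at 336, 344 and 360 CPM in WT and at 327, 174 and 208 CPM in pho92_null, so all 3 WT libraries lay above all 3 null libraries, by little in null replicate 1. ZIP1 (YDR285W), which encodes a protein of the synaptonemal complex, was at 1041, 1334 and 1278 CPM in WT and at 861, 524 and 695 CPM in pho92_null. The groups did not overlap, and the log2 difference was 0.83 (SE 0.23, adjusted p = 0.00709 without that library; 0.073 with it, limma). Other synapsis genes called were CST9 at a log2 of 0.52, SPO22 at 0.58, MSH4 at 0.55, MSH5 at 0.43, GMC2 at 0.66 and ECM11 at 0.57. Gmc2 and Ecm11 form the central element beside Zip1. HED1, a meiosis-specific gene of the strand exchange group, rose by 0.58, and NDJ1 and CSM4, which act in telomere-led chromosome movement, by 0.50 and 0.46. Null replicate 1 had the highest value of its strain in each of SPO11, ZIP1 and MAM1, and NDT80 was at 514 CPM in it and at 154 and 148 CPM in replicates 2 and 3. The part of that in the results was not tested.

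Induced intact Pho92 gave a mixed comparison with pho92_null. With all libraries MAM1 alone was called, higher, when 19.2% of all genes were. In the 38 libraries 5 genes were higher, against 21.7% of all genes, and 1 was lower, against 23.7%. The members' shares, 15.6% and 3.12%, were thus below those of all genes in both directions. The higher ones were SPO11 at a log2 of 0.47, REC114 at 0.55, ZIP1 at 0.82, CST9 at 0.54 and MAM1. HOP1 (YIL072W), whose product is the axis protein that recruits the recombination kinase, was the lower one. It was at 2712, 1897 and 2120 CPM in pho92_null, while CUP1_WT held 1378, 1710 and 1668 CPM, without overlap, a log2 of -0.49 (SE 0.16, limma adjusted p = 0.0161 without del110_155 replicate 3; 0.191 with it). HOP1 is named here after its values were seen.

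Few of these genes differed between native and induced PHO92. Between CUP1_WT and WT, limma called 1.66% of all genes but 0 of the 32, of which 0 had an unadjusted p under 0.05. Among 38 libraries 1 gene was lower in CUP1_WT, against 0.959% of all genes. This was CSM4, at 182, 212 and 205 CPM in CUP1_WT, where WT had 312, 290 and 300 CPM, a log2 of -0.59 (SE 0.16, limma adjusted p = 0.0474). Its groups did not overlap. The median difference was -0.23, with 4 of 32 genes positive.

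**Figure D2:**
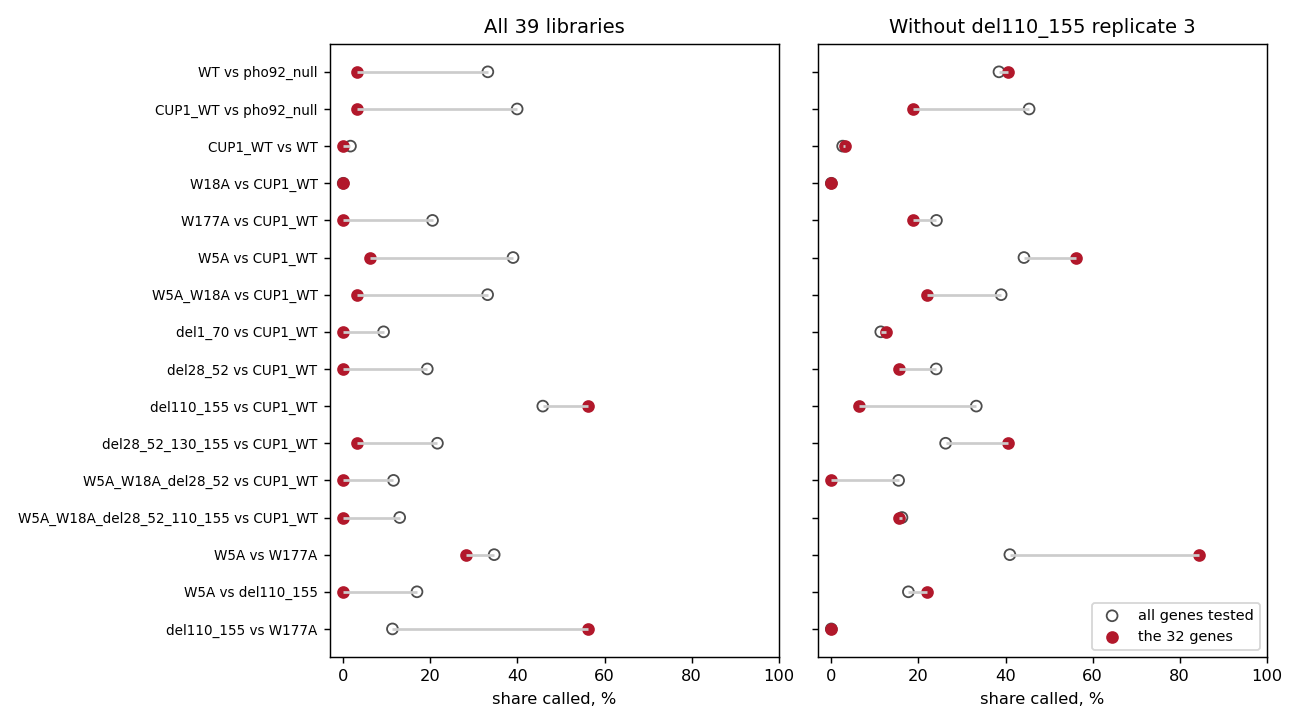
Share of genes called at a limma adjusted p under 0.05, in either direction, among the 32 genes (filled) and all genes tested (open) in each comparison, with all 39 libraries (left) and without del110_155 replicate 3 (right). For W5A against W177A, 9 of the 32 genes were called on the left and 27 on the right.

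MAM1 had the greatest differences of the 32 genes. The product of MAM1 (YER106W) is part of monopolin, which makes sister kinetochores attach to 1 pole in the first division. MAM1 was at 206, 227 and 126 CPM in WT and, for the induced intact copy, at 205, 214 and 118 CPM. In pho92_null it was at 116, 32.0 and 23.6 CPM. All 3 null libraries lay below all 6 others, null replicate 1 by a small margin. The log2 difference was 2.02 for WT (SE 0.55, limma adjusted p = 0.00862) and 1.96 for CUP1_WT (SE 0.55, adjusted p = 0.00675). Without pho92_null replicate 2 or 3 the WT difference was 1.79 or 1.57 and lost its call (limma adjusted p = 0.0517 and 0.0589). The CUP1_WT difference lost it without replicate 3, at 1.51 (adjusted p = 0.0579). Fitting only the 6 libraries compared gave limma adjusted p of 0.0606 and 0.0549.

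Among the variants, MAM1 was lowest where W5A was alone, where it was joined to W18A, and in del110_155. It had 39.6, 27.3 and 21.3 CPM in W5A, 23.8, 39.5 and 30.8 CPM in W5A_W18A, and 43.7, 38.6 and 6.80 CPM in del110_155. All 9 of these libraries lay below all 3 of CUP1_WT. Against CUP1_WT the log2 differences were -2.60 for W5A (SE 0.55, limma adjusted p = 0.000929), -2.49 for W5A_W18A (adjusted p = 0.00212) and -2.93 for del110_155 (adjusted p = 0.000158). Without del110_155 replicate 3 the last was -2.07 (SE 0.52, adjusted p = 0.00343). With only the 6 libraries compared, the adjusted p of del110_155 was 0.0519.

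MAM1 in the other strains reached the CUP1_WT range. It was at 190, 181 and 110 CPM in W18A, 163, 152 and 55.7 CPM in W177A, 152 to 291 CPM in the 3 libraries of del1_70 and 139, 136 and 89.3 CPM in del28_52. The strains with combined changes held 145, 194 and 88.5 CPM (del28_52_130_155), 127, 105 and 169 CPM (W5A_W18A_del28_52) and 214, 249 and 108 CPM (W5A_W18A_del28_52_110_155). Each overlapped with CUP1_WT, and none was called against it. Replicate 3 was the lowest of its strain in 11 of the 13 strains, the exceptions being W5A_W18A and W5A_W18A_del28_52.

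**Figure D3:**
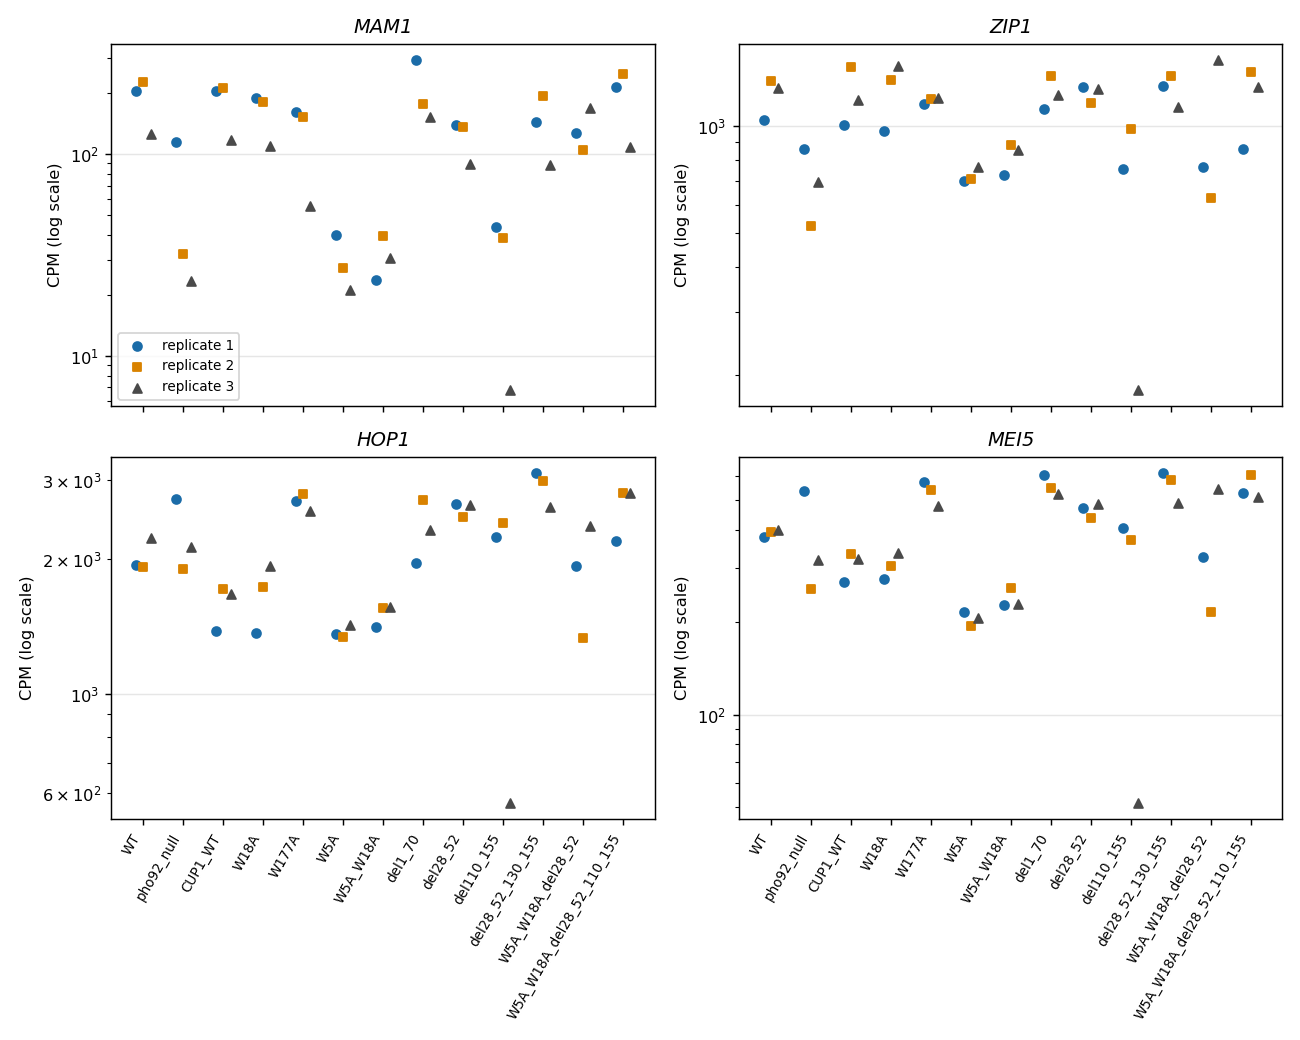
CPM (log axes) of MAM1, ZIP1, HOP1 and MEI5 in each of 39 libraries, by strain, with 1 symbol per replicate number. MAM1 and ZIP1 are low in W5A, whereas HOP1 and MEI5 are high in W177A, at 2550 to 2783 CPM and 479 to 575 CPM.

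The W5A substitution went with lower levels in most of the 32 genes, across roles. With all libraries 2 genes were lower than in CUP1_WT, MAM1 and CST9, against 18.1% of all genes lower. The 38 libraries gave 18 lower and 0 higher, against 20.6% of all genes lower. Fitting only the 6 libraries of these strains also gave 18 lower and 0 higher, and del110_155 does not enter that fit. The share of all genes was not computed for this or any other fit of only the strains compared. Counts from such fits therefore have no background to be set against. The median log2 difference of the 32 genes was -0.51, where that of all genes was 0.03, and 31 of 32 were negative.

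CST9 (YLR394W) encodes Zip3, the SUMO ligase that marks crossover sites. It was at 159, 202 and 183 CPM in CUP1_WT and at 110, 109 and 131 CPM in W5A, without overlap. The log2 difference was -0.63 (SE 0.26, limma adjusted p = 0.0493), and leaving out any 1 of these 6 libraries ended the call (adjusted p 0.052 to 0.127). Without del110_155 replicate 3 its adjusted p was 0.00818. MSH5 (YDL154W), which with MSH4 encodes a clamp on recombination intermediates, was at 681, 692 and 628 CPM in CUP1_WT and at 467, 411 and 458 CPM in W5A. These groups were well separated, with a log2 of -0.58 (SE 0.13, limma adjusted p = 0.00122 without del110_155 replicate 3; 0.124 with it). ZIP1 was at 1007, 1465 and 1180 CPM in CUP1_WT and at 698, 708 and 768 CPM in W5A, and again the groups did not overlap (log2 -0.73, limma adjusted p = 0.0117 in the 38 libraries).

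By role, the 18 lower genes were SPO11, REC104, REC114 and MEI4 of 7 break genes, MEK1 of 5 axis genes and MEI5 and HED1 of 6 exchange genes. They were also ZIP1, CST9, SPO22, HFM1, MSH4, MSH5, GMC2 and ECM11 of 10 synapsis genes, and NDJ1, CSM4 and MAM1 of 4 motion and division genes. Apart from MAM1 their log2 differences lay between -0.73 and -0.40. HOP1 and REC8 were not among them. HOP1 was at 1357, 1340 and 1425 CPM in W5A and REC8 at 1198, 1148 and 1305 CPM, where CUP1_WT had 1210, 1420 and 1443 CPM of REC8. In both genes the W5A libraries lay below or within the lower part of the CUP1_WT range.

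W18A left the 32 genes near their CUP1_WT levels. Limma called 0 of them and 0% of all genes, and 0 of the 32 had an unadjusted p under 0.05, both with and without del110_155 replicate 3. In the 38 libraries the log2 differences ran from -0.15 to 0.14, with standard errors of 0.13 to 0.46. With both substitutions, W5A_W18A, 1 gene was lower with all libraries, MAM1, against 16.5% of all genes. The 38 libraries gave 7 lower, a share of 21.9%, near the 18.9% of all genes. They were SPO11 at -0.50, HED1 at -0.60, SPO22 at -0.48, MSH5 at -0.54, GMC2 at -0.52, ECM11 at -0.50 and MAM1. MSH5 was at 429, 474 and 470 CPM there, below every CUP1_WT library. For the departure of W5A_W18A from the sum of its parts limma called 0 of the 32, with 0 at an unadjusted p under 0.05, and 0% of all genes.

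W177A changes a tryptophan of the YTH domain. With all libraries 0 of the 32 genes were called against CUP1_WT by limma, with 2 at an unadjusted p under 0.05, and 20.5% of all genes. Leaving out del110_155 replicate 3, 6 were higher and 0 lower, against 15.6% of all genes higher, so the share of members, 18.8%, was near that of all genes. The 6-library fit gave 4 higher. These 6 were the axis genes HOP1 and REC8 and the exchange genes HOP2, MEI5 and SAE3, with the helicase gene HFM1. In the same 38 libraries MEI5 and HFM1 were lower in W5A than in CUP1_WT. The genes described one by one for W177A and for the deletion strains were chosen after their values were seen, except MEI5.

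HOP1 was at 2688, 2783 and 2550 CPM in W177A, above the highest CUP1_WT library at 1710 CPM. Its log2 difference was 0.76 (SE 0.16, limma adjusted p = 0.000974 in the 38 libraries; 0.071 in all 39). REC8 (YPR007C), which encodes the cohesin subunit that holds sister chromatids in meiosis, was at 2162, 2175 and 2039 CPM, above all CUP1_WT libraries. Its difference was 0.65 on the log2 scale (SE 0.16, adjusted p = 0.00307 in the 38 and 0.106 in the 39). MEI5 (YPL121C), whose product loads Dmc1 with Sae3, was at 575, 539 and 479 CPM in W177A and at 271, 335 and 323 CPM in CUP1_WT, without overlap. Its log2 was 0.78 (SE 0.21, limma adjusted p = 0.00747 and 0.181). SAE3, the partner of MEI5, rose by 0.57, HFM1 by 0.52 and HOP2 by 0.44. ZIP1, at 1150, 1189 and 1200 CPM, lay within the CUP1_WT range.

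HOP1, REC8 and MEI5 were also called higher in del1_70, del28_52 and del28_52_130_155 once del110_155 replicate 3 was left out. All of these were compared with the 3 CUP1_WT libraries used for W177A, so the comparisons are not independent. WT too lay above every CUP1_WT library in these genes, though none was called between WT and CUP1_WT. It had 1914 to 2220 CPM of HOP1, 1774 to 1944 CPM of REC8 and 380 to 400 CPM of MEI5. HOP1 and REC8 in del1_70 overlapped with WT. MEI5 in del1_70, and these genes in W177A, del28_52 and del28_52_130_155, lay above WT. In del1_70 limma called 0 of the 32 with all libraries, with 3 at an unadjusted p under 0.05, and 9.26% of all genes. Leaving out del110_155 replicate 3 gave 4 higher, against 8.15% of all genes: HOP1 at 0.55, REC8 at 0.60, MEI5 at 0.85 and SAE3 at 0.73. MEI5 stood at 604, 547 and 522 CPM, clear of the CUP1_WT range. With only the 6 libraries compared, 0 were called.

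In del28_52 limma likewise called 0 with all libraries, with 2 at an unadjusted p under 0.05, and 19.3% of all genes. The 38 libraries gave 5 higher, a share of 15.6%, near the 13.9% of all genes. They were HOP1 at 0.71, REC8 at 0.61, PCH2 at 0.53, MEI5 at 0.59 and HFM1 at 0.57. Pch2 is the ATPase that removes Hop1 from synapsed chromosomes. HOP1 was at 2646, 2481 and 2631 CPM, all above CUP1_WT, and the 6-library fit called 10 of the 32 higher.

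In the 38 libraries, deletion of both 28 to 52 and 130 to 155 had the most higher genes of all strains compared with CUP1_WT. HOP1 was higher with all libraries, 1 of the 32 against 12.4% of all genes. It was at 3104, 2988 and 2606 CPM, without overlap with CUP1_WT, a log2 of 0.87 (SE 0.30, limma adjusted p = 0.0357). Leaving out any 1 library of either strain ended that call. Without del110_155 replicate 3, 13 were higher and 0 lower, against 15.3% of all genes higher. In that fit HOP1 had an adjusted p of 0.000208, REC8 a log2 of 0.77 and MEI5 one of 0.86. MEK1, the kinase recruited by Hop1, was at 0.56, PCH2 at 0.69, HOP2 at 0.43, SAE3 at 0.50, ZIP2 at 0.70, SPO16 at 0.41 and HFM1 at 0.64. MSH5 was at 0.38 and NDJ1 and CSM4 both at 0.47. The 6 libraries fitted alone gave 9 higher.

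The result for del110_155 was decided by replicate 3. With all libraries 18 of the 32 genes were lower than in CUP1_WT, against 23.5% of all genes. Without replicate 3, 1 was lower, MAM1, against 17.5%, and 1 was higher, HOP1, against 15.8%. The largest of the 18 after MAM1 were GMC2 (YLR445W) at -1.41 (SE 0.46, limma adjusted p = 0.0145) and ECM11 (YDR446W) at -1.28 (SE 0.45, adjusted p = 0.0218). GMC2 was at 185, 180 and 17.2 CPM in del110_155 and at 188, 244 and 234 CPM in CUP1_WT. ECM11 was at 803, 772 and 80.6 CPM, against 799, 1057 and 851 CPM. In both genes replicates 1 and 2 lay near the lowest CUP1_WT library and replicate 3 far below, and without it the log2 values were -0.27 and -0.19. HOP1 was at 2241, 2403 and 571 CPM in del110_155, and its log2 turned from -0.12 with replicate 3 to 0.56 without it (SE 0.18, limma adjusted p = 0.0196). With only the 6 libraries compared 0 of the 32 were called.

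**Figure D4:**
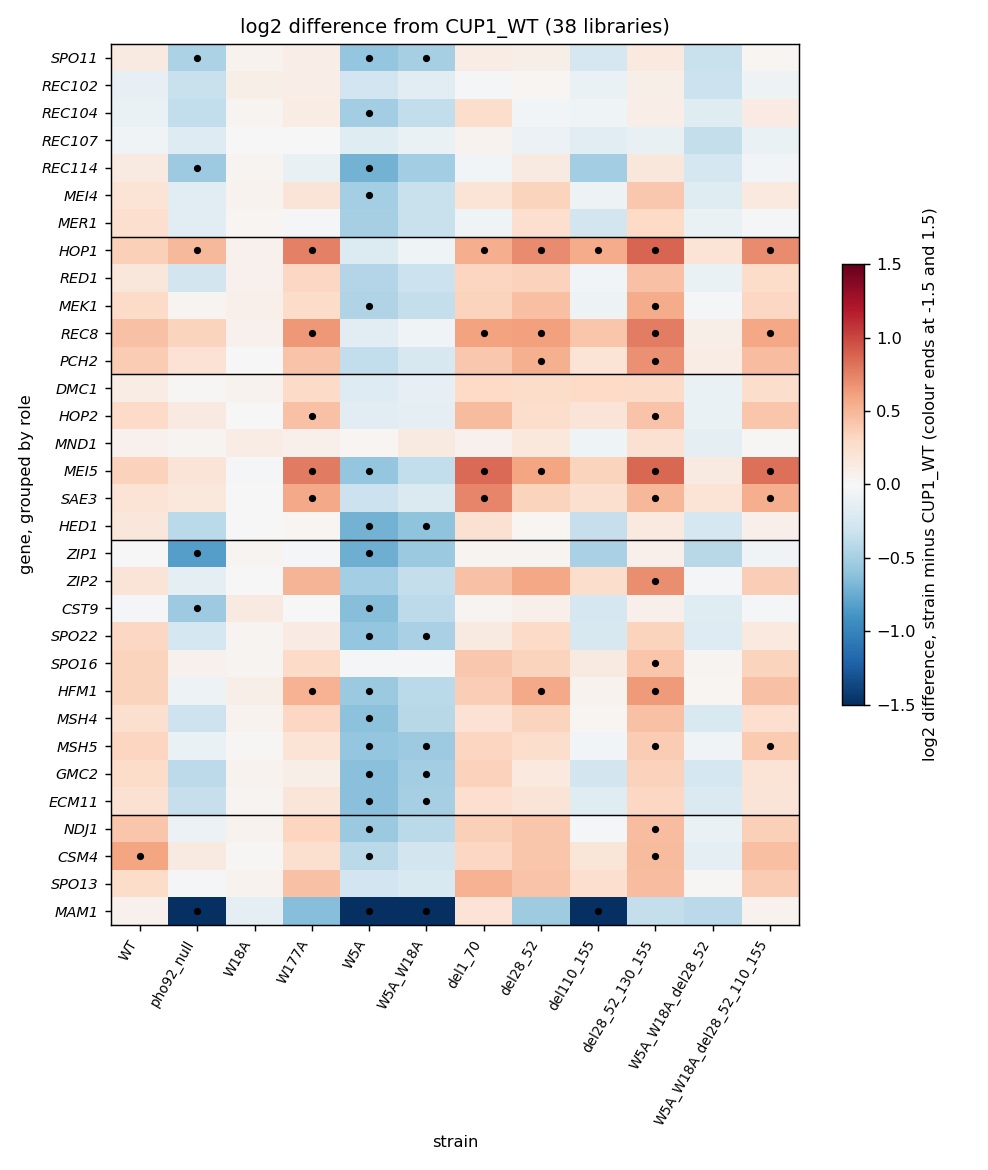
log2 difference of each of the 32 genes from CUP1_WT in 12 strains, from the fit without del110_155 replicate 3; rows are grouped by role (break, axis, exchange, synapsis, motion and division) and dots mark a limma adjusted p under 0.05. Red is higher and blue lower than CUP1_WT, and MAM1 passes the blue end of the colour scale in pho92_null, W5A, W5A_W18A and del110_155.

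Joining W5A_W18A to the deletion of 28 to 52 gave a strain without the low MAM1 of W5A_W18A. Against CUP1_WT, limma called 0 of the 32 in W5A_W18A_del28_52, where 0 had an unadjusted p under 0.05, and 11.5% of all genes. Without del110_155 replicate 3 it again called 0, with 1 at an unadjusted p under 0.05, and 15.5% of all genes. Its libraries were uneven: MSH5 was at 630, 485 and 872 CPM and MEI5 at 325, 217 and 544 CPM, replicate 3 being highest and replicate 2 lowest in both. The departure from the sum of W5A_W18A and del28_52 was called for 1 of the 32 genes, MAM1, above the sum, against 8.87% of all genes. It was 2.63 on the log2 scale (SE 0.78, limma adjusted p = 0.0305). Without del110_155 replicate 3 it was again MAM1 alone (adjusted p = 0.0128), against 11% of all genes above the sum. The call was lost without CUP1_WT replicate 1 or 2, W5A_W18A replicate 1 or 3, W5A_W18A_del28_52 replicate 1 or 3, or del28_52 replicate 3, with values of 2.42 to 2.65 (limma adjusted p 0.0543 to 0.11).

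In W5A_W18A_del28_52_110_155 limma called 0 of the 32 with all libraries, with 1 at an unadjusted p under 0.05, and 13% of all genes. The 38 libraries gave 5 higher, against 10.6% of all genes: HOP1 at 0.71, REC8 at 0.58, MEI5 at 0.83, SAE3 at 0.55 and MSH5 at 0.40. MEI5 was at 527, 603 and 513 CPM and MSH5 at 840, 880 and 913 CPM, both above every CUP1_WT library. With only the 6 libraries compared, 0 were called.

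Each of the 10 variants was also set against the same 3 pho92_null libraries. With all libraries limma called 2 higher in W18A (18% of all genes higher), 1 in del1_70 (3.78%) and 1 in W5A_W18A_del28_52_110_155 (4.32%). It called 0 in the others, where 0 to 13 had an unadjusted p under 0.05. The shares of all genes called there were 4.83% for W177A, 14.6% for W5A, 10.5% for W5A_W18A, 4.5% for del28_52, 3.42% for del28_52_130_155 and 0.925% for W5A_W18A_del28_52. The last strain also had 0 called in the 38 libraries, with 1 at an unadjusted p under 0.05, against 1.66% of all genes. In the 38 libraries del28_52_130_155 had 16 of the 32 higher, against 4.09% of all genes, del1_70 12, against 7.64%, and del28_52 8, against 4.45%. There were also 9 higher in W5A_W18A_del28_52_110_155 (9.23%), 3 in W177A (4.81%) and 6 in W18A (20.5%), with HOP1 lower in the last (22.8%). For W18A the members' share, 18.8%, was below that of all genes. SPO11 and ZIP1 were called higher in all 6 of these strains, at 0.50 to 0.61 and 0.77 to 0.90. Fitted with only the 6 libraries compared, the count was 1 for W18A and 0 for the other 5.

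In W5A and W5A_W18A limma called 0 of the 32 genes higher than in pho92_null in the 38 libraries, with 0 higher at an unadjusted p under 0.05. W5A had 6 lower, against 8.96% of all genes: HOP1 at -0.69, REC8 at -0.49, PCH2 at -0.59, MEI5 at -0.78, MSH5 at -0.48 and CSM4 at -0.54. W5A_W18A had 2 lower, HOP1 at -0.56 and MSH5 at -0.44, against 7.25% of all genes. ZIP1 overlapped between W5A, at 698 to 768 CPM, and pho92_null, at 524 to 861 CPM. For del110_155 against pho92_null limma called 0 of the 32 genes and 0.205% of all genes. Unadjusted, 13 had a p under 0.05, all lower. Without replicate 3 limma called 0, with 0 at an unadjusted p under 0.05, and 0.0171% of all genes.

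W5A and W177A were compared directly. With all libraries 9 were lower in W5A and 0 higher, against 16.9% of all genes lower. Without del110_155 replicate 3, 27 were lower, against 20.6% of all genes, and the 6 libraries of these strains fitted alone gave 26. All 32 log2 differences were negative, with a median of -0.71. MEI5 was at 217, 195 and 206 CPM in W5A, below all W177A libraries by more than their spread, a log2 of -1.36 (limma adjusted p = 0.0125 in all 39 libraries). HOP1 had -0.96 (adjusted p = 0.0141), HFM1 -1.08 (0.0205), MSH5 -0.78 (0.0435) and MAM1 -1.97 (0.00716). The 5 not called in the 38 libraries were REC102, REC107, MER1, MND1 and SPO16.

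The difference between W177A and del110_155 again rested on 1 library. With it 18 of the 32 genes were lower in del110_155, against 6.3% of all genes, and without it limma called 0, with 2 at an unadjusted p under 0.05, and 0% of all genes. W5A against del110_155 gave 0 by limma with all libraries, with 1 at an unadjusted p under 0.05, and 16.9% of all genes. Without replicate 3, 7 were lower in W5A, against 8.24% of all genes, among them HOP1 at -0.76 and MEI5 at -0.91.

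The balance between members could also be read within a library, where scaling between libraries does not enter. The ratio of HOP1 to ZIP1 counts, a pair chosen after the values were seen, is given as a description with no test. It was 1.37, 1.17 and 1.41 in CUP1_WT, 1.41, 1.28 and 1.31 in W18A and 1.86, 1.43 and 1.74 in WT. It was 3.15, 3.62 and 3.05 in pho92_null, and all null libraries lay above all of these. W177A had 2.34, 2.34 and 2.12, and W5A 1.94, 1.89 and 1.86, so both lay between CUP1_WT and the null. All libraries of WT and of the other variants except W18A and del110_155 lay there too, and W5A overlapped with WT. In del110_155 the ratio was 2.96, 2.46 and 3.15, and replicate 3, which stood apart in level, was not apart here. Gene length is the same in every library for each gene, so the ratio compares strains and not the levels of the 2 genes.

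**Figure D5:**
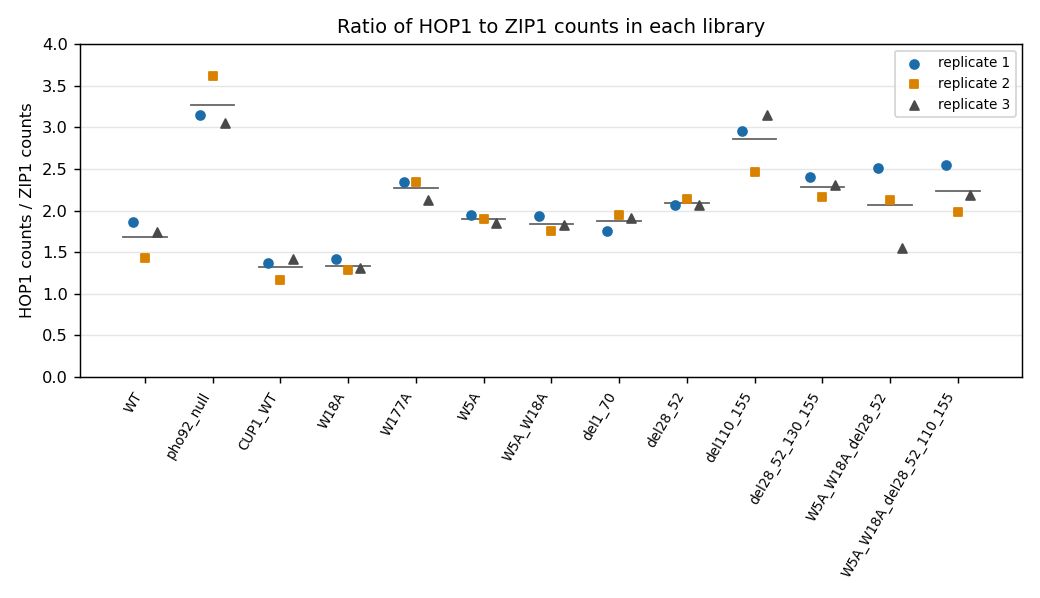
Ratio of HOP1 to ZIP1 counts within each of 39 libraries, by strain; points are libraries and bars strain means. CUP1_WT libraries lie at 1.17 to 1.41 and pho92_null libraries at 3.05 to 3.62, and del110_155 replicate 3 lies at 3.15 with its strain.

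MEI5 and SPO11, a pair also chosen after the values were seen and not tested, gave a like ratio with a different order of strains. It was 0.96, 0.96 and 1.00 in CUP1_WT and 0.89, 1.03 and 1.00 in W5A, which overlapped. In pho92_null it was 1.64, 1.47 and 1.53 and in W177A 1.62, 1.55 and 1.52, above CUP1_WT in all 6 libraries. WT, at 1.13, 1.15 and 1.11, lay between. Every library of the variants other than W5A and W18A lay above CUP1_WT, so this was not particular to W177A.

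Across all 13 strains at once, 18 of the 32 genes differed with all libraries, against 64.5% of all genes, and 27 without del110_155 replicate 3, against 67.1% (limma F-test). The lowest p-values were those of MAM1 (adjusted p = 1.31e-05), MSH5 (0.00732) and MEI5 (0.00814). Not called in either fit were REC102 and REC107 of the break machinery, MER1, a meiotic splicing factor, the recombinase gene DMC1, and MND1, the partner of HOP2. MND1 lay between 320 and 576 CPM in 38 libraries and at 144 CPM in del110_155 replicate 3. REC107, needed with MEI4 and REC114 for breaks, lay between 84.4 and 179 CPM in those 38 and at 57.4 CPM in the other.

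Another list held recombination genes that also act outside meiosis. Of 32 such genes, 7 were higher and 2 lower in WT than in pho92_null, where 14.8% of all genes were higher and 18.4% lower, with EXO1, a nuclease needed for crossovers, at a log2 of 2.07, SGS1 at 0.90 and SAE2 at 0.74. The median log2 of the list was 0.10. In W5A against CUP1_WT 2 were higher and 8 lower, against 20.9% and 18.1% of all genes, with EXO1 at -2.27, SGS1 at -0.85 and RAD55 at 0.70. In W177A against CUP1_WT 3 were higher, against 13.5% of all genes, with RDH54 at 1.22 and RAD50 at 0.53. Of 19 checkpoint and chromatin genes, 4 were higher and 2 lower in that comparison of WT with pho92_null, a median log2 of -0.06, with the phosphatase gene PPH3 at -1.16, SET1 at 0.55 and CSM1 at 0.52.

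Most genes of later sporulation were called in the same direction as MAM1 when pho92_null, W5A and del110_155 were compared with intact PHO92. Of 24 mid-to-late genes, 20 were higher in WT and 21 in CUP1_WT than in pho92_null, and 23 were lower in W5A and 22 in del110_155 than in CUP1_WT. The shares of all genes were 14.8%, 19.2%, 18.1% and 23.5% in these directions. In del110_155 20 were lower without replicate 3, against 17.5% of all genes. W177A had 1 lower than CUP1_WT, against 7.04% of all genes. Without del110_155 replicate 3 it had 3 lower and 1 higher, where 15.6% of all genes were higher. Their mean log2 CPM was 9.06 ± 1.06 in CUP1_WT, 6.35 ± 1.17 in pho92_null, 5.76 ± 0.63 in W5A and 7.48 ± 1.28 in W177A (SD, n = 3 each). It was 7.71 ± 0.59 in del28_52 and 7.63 ± 0.84 in del28_52_130_155 (SD, n = 3 each), where MAM1 was not called, as in W177A. Replicate 3 had the lowest mean in every strain but W5A_W18A. In CUP1_WT replicates 1, 2 and 3 had 9.99, 9.28 and 7.90, so these SDs include a difference by replicate number. NDT80 differed by a log2 of 2.31 in WT (SE 0.63, limma adjusted p = 0.00832) against pho92_null and by -2.94 in W5A against CUP1_WT (adjusted p = 0.000941). IME2 differed by 1.09 and -1.27 and IME1, which was not called, by 0.22 and -0.21 in the same comparisons. The part of meiotic progress in the values of the 32 genes was not tested.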

How the data were processed

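Transcripts of 39 libraries were counted by the authors, and the deposited table holds whole-number counts per feature below lines of library annotation that share the same columns. The submitters' processing notes name STAR 2.7.10a, RSEM 1.3.1 and DESeq2 1.48.1. Which build, annotation and strand setting lay behind the counts is not given in the sources used here, so no coordinates, sequences or promoter motifs are given, and reads of overlapping or antisense genes may be shared. In the table, 39 further value columns were not used here.

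The members and gene lists were chosen with earlier results of these data known. Libraries were grouped by the strain in their titles. Because the columns mix counts with annotation, limma 3.58.1 (R 4.3.3) was used on log2 CPM computed from the deposited counts, after TMM scaling with a prior count of 2, which understates changes of low genes. A gene was kept if it reached the rate of 10 counts in the median library in 3 libraries and 15 counts in all, leaving 5840 genes. A single model with 13 strain means was fitted to all 39 libraries, and p-values were adjusted by Benjamini-Hochberg over all genes. In the fit without del110_155 replicate 3, 5837 genes were tested and that strain had 2 libraries. No pair of replicates was a duplicate: over 39 pairs, chi-square per degree of freedom was 12.8 to 565.

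Genes given in every library were the 3 with the greatest change among those called in 5 main comparisons, the 3 with the lowest F-test p-values, and any called for a departure from a sum. Others so described were chosen after their values were seen. In the other gene lists, 1 gene is not reported here. The alternatives were RLE size factors, no low-count filter, a prior count of 0.5, the replicate block, only the strains compared, and each library left out in turn. The code was tested on simulated data.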

Additional observations from a re-analysis of the deposited data

Results flagged for a closer look

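MAM1 in W5A_W18A_del28_52 stood out because its level departed from the sum of the W5A_W18A and del28_52 differences, each against CUP1_WT, by 2.63 on the log2 scale (SE 0.78, limma adjusted p = 0.0305). All 3 libraries of the joined strain, at 127, 105 and 169 CPM, lay above all 3 of W5A_W18A, at 23.8, 39.5 and 30.8 CPM. No explanation was tested.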

How the results depend on the processing

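Counts below are of the 32 genes called. RLE size factors and a prior count of 0.5 kept every count within 1.5 times its value. Without the low-count filter, W5A against CUP1_WT gave 1. The replicate numbers did not meet the rule set for pairing, under which every same-numbered pair of libraries had to correlate over 0.1. Of 234 such pairs 166 did (mean 0.286, lowest -0.456), whereas pairs of different number had a mean of -0.139. Since 30 of 39 libraries correlated best with their own number, some of the spread went with the number. The main fit has no term for it. The replicate block gave 2 for del28_52_130_155 against CUP1_WT, 1 each for W177A, del28_52, del28_52_130_155 and W5A_W18A_del28_52 against pho92_null, and 30 for del110_155 against W177A, and moved no other count past 1.5 times.

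With only the strains compared, the counts against CUP1_WT were 4 for W177A, 18 for W5A, 10 for W5A_W18A, 10 for del28_52, 0 for del110_155 and 9 for del28_52_130_155. Against pho92_null they were 1 for W18A, 0 for del1_70 and 0 for W5A_W18A_del28_52_110_155, and against W177A 26 for W5A and 0 for del110_155. The share of all genes called was not computed for these fits. The cause of these moves was not tested.

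Leaving out 1 library, del110_155 replicate 3 included, gave ranges. Against CUP1_WT these were 0 to 6 for W177A, 1 to 18 for W5A, 0 to 0 for W18A, 1 to 7 for W5A_W18A, 0 to 4 for del1_70, 0 to 5 for del28_52, 2 to 29 for del110_155, 0 to 13 for del28_52_130_155, 0 to 1 for W5A_W18A_del28_52 and 0 to 5 for W5A_W18A_del28_52_110_155. Against pho92_null they were 0 to 13 for WT, 0 to 6 for CUP1_WT, 0 to 3 for W177A, 0 to 6 for W5A, 0 to 7 for W18A, 0 to 2 for W5A_W18A, 0 to 12 for del1_70, 0 to 8 for del28_52, 0 to 2 for del110_155, 0 to 16 for del28_52_130_155, 0 to 1 for W5A_W18A_del28_52 and 0 to 9 for W5A_W18A_del28_52_110_155. They were 0 to 1 for CUP1_WT against WT, 3 to 27 for W5A against W177A, 0 to 7 for W5A against del110_155, 0 to 32 for del110_155 against W177A, 0 to 0 and 0 to 1 for the departures from a sum, and 14 to 28 for the F-test.

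Of the named genes' log2 values under the alternatives, 631 kept their direction and side of the threshold, 72 gained and 48 lost their call. HOP1 in del110_155 against CUP1_WT, -0.12 with all libraries, ran from -0.48 without del110_155 replicate 2 to 0.56, reversed, without replicate 3. With 3 libraries per strain, the smallest difference from CUP1_WT called in the 38 libraries was a log2 of 0.38. The promoter motifs planned were not run.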
